A study of Homo sapiens with 8 samples.

Results

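The 10 genes described here are 3 Notch ligands (JAG1, JAG2 and DLL1), 3 receptors (NOTCH1, NOTCH2 and NOTCH3) and 4 genes that Notch is known to induce (HES1, HES4, HEY1 and NRARP). They were chosen with earlier results of these data known, and by symbol each matched 1 of the 58688 gene identifiers in the count files. The cells were LM2, a line derived from MDA-MB-231 human breast cancer cells that spread to the lung, and RNA was sequenced from 8 samples of whole cultures. Cells given 1 µmol/L Ponatinib, an inhibitor of ABL and several other tyrosine kinases, for 6 h and cells given DMSO have 2 samples each. LM2 lines made with lentivirus carrying scrambled shRNA (shCtrl), ABL1 shRNA, ABL2 shRNA or both have 1 sample each. The study's protocol selects cells that carry an shRNA with puromycin, without naming the scrambled control separately, and the labels of the DMSO and Ponatinib cells name no shRNA. The question was how Ponatinib and loss of ABL, its best-known target, change the transcripts of these cells.

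The Notch pathway carries signals between touching cells. A ligand of the Jagged or Delta-like family on one cell binds a Notch receptor on its neighbour, ADAM proteases and gamma-secretase then cut the receptor, and its freed intracellular part enters the nucleus. There it joins the DNA-binding protein RBPJ and the coactivator MAML to switch on genes such as those of the HES and HEY families, which encode repressors of transcription. In breast cancer the pathway is studied for its part in stem-like cell states and in metastasis.

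The samples held between 7568934 and 13010896 counts on genes, and 3 counts equal 0.231 to 0.396 CPM, a count scaled by the total of its sample. The fewest were in Ponatinib replicate 2. ABL1 mRNA in the ABL1 shRNA sample was 38.1% of shCtrl and 57.4% with both shRNAs, and ABL2 mRNA was 39.3% with ABL2 shRNA and 62.3% with both. In the files of shCtrl and of ABL1 shRNA the header cells are swapped against the labels, and since the ABL1 levels follow the labels, those were used. VIM (1896 to 3179 CPM) and CD44 (480 to 741 CPM) were high in every sample, PGR was at 0 and ESR1 was at or below 0.869 CPM, whereas ERBB2 was at 52.7 to 68.0 CPM. The leukocyte genes PTPRC and CD3E were at or below 0.264 CPM. Repeat samples carry no statement that they came from separate cultures, so p-values measure the spread between these samples only.

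Per kilobase of exon, the unit in which genes can be compared, NOTCH2 was the highest member in DMSO-treated cells at 19.98 ± 0.14 CPM per kb (SD, n = 2, as for all DMSO values here). JAG1 followed at 18.4 ± 0.59 and HES1 at 13.9 ± 1.71 CPM per kb. A step below them stood NOTCH1 at 5.58 ± 0.11 and HES4 at 4.32 ± 0.94 CPM per kb. NRARP, at 1.20 ± 0.16 CPM per kb, and JAG2, at 1.03 ± 0.11, overlapped between samples and could not be ordered. NOTCH3 (0.415 ± 0.116 CPM per kb) and HEY1 (0.393 ± 0.085) also overlapped. DLL1 was the lowest at 0.221 ± 0.056 CPM per kb, which rests on 8 and 10 counts. Lengths are the union of annotated exons, so a gene read from a short isoform is placed too low.

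**Figure D1:**
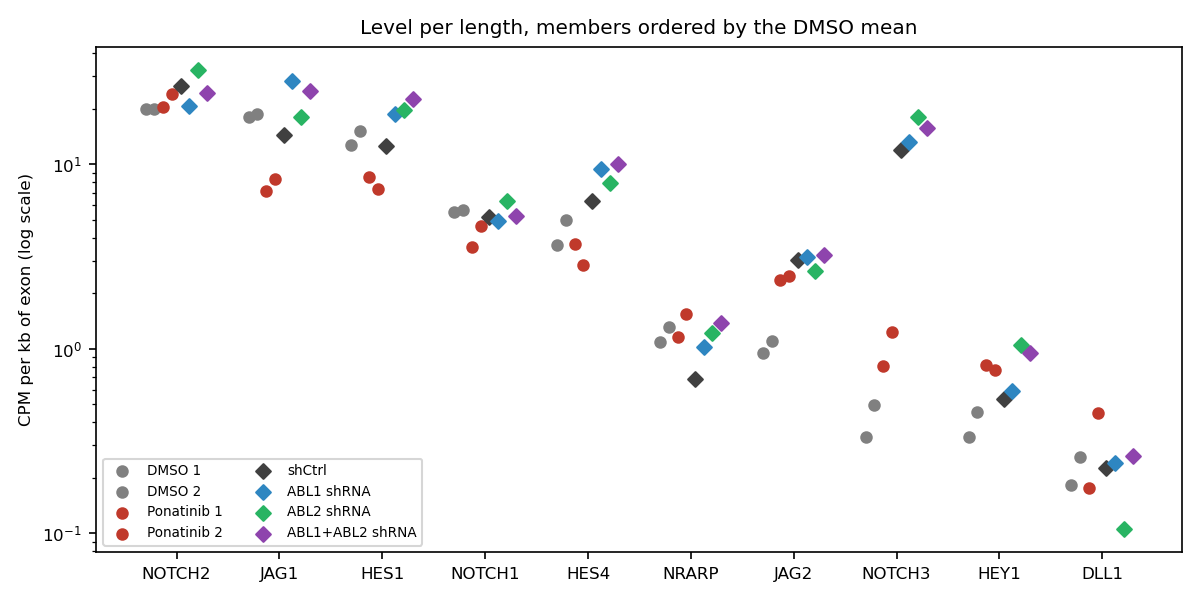
Level per length of each of the 10 genes (CPM per kb of exon, log scale), ordered by the DMSO mean; circles are the DMSO and Ponatinib samples and diamonds the shRNA samples. NOTCH2, JAG1 and HES1 lead in DMSO-treated cells, and NOTCH3 is the gene whose diamonds stand farthest above its circles.

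After Ponatinib treatment each class of the pathway split, with 1 ligand, 1 receptor and 1 target lower and 1 of each higher. JAG1, NOTCH1 and HES1 fell, JAG2, NOTCH3 and HEY1 rose, and DLL1, NOTCH2, HES4 and NRARP did not pass the test. The test was edgeR's quasi-likelihood test over 16031 genes, at an adjusted p under 0.05. With DESeq2's Wald test HEY1 did not pass (DESeq2 adjusted p = 0.18), so the split of the targets depends on the tool. All 10 members passed the filter on low counts. Among all genes tested, 30.7% passed (15.0% higher and 15.7% lower), against 6 of 10 members, and the median log2 fold change was 0.11 for the members and -0.0047 for all genes. Since the members were chosen with earlier results of these data known, the higher share among them is a description only. With a fold change over 2 required as well, 4.83% of all genes and 3 of the members (JAG1, JAG2 and NOTCH3) passed. The same 3 met the study's own rule of a fold change over 2 with an unadjusted p under 0.05, as did 5.48% of all genes.

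**Figure D2:**
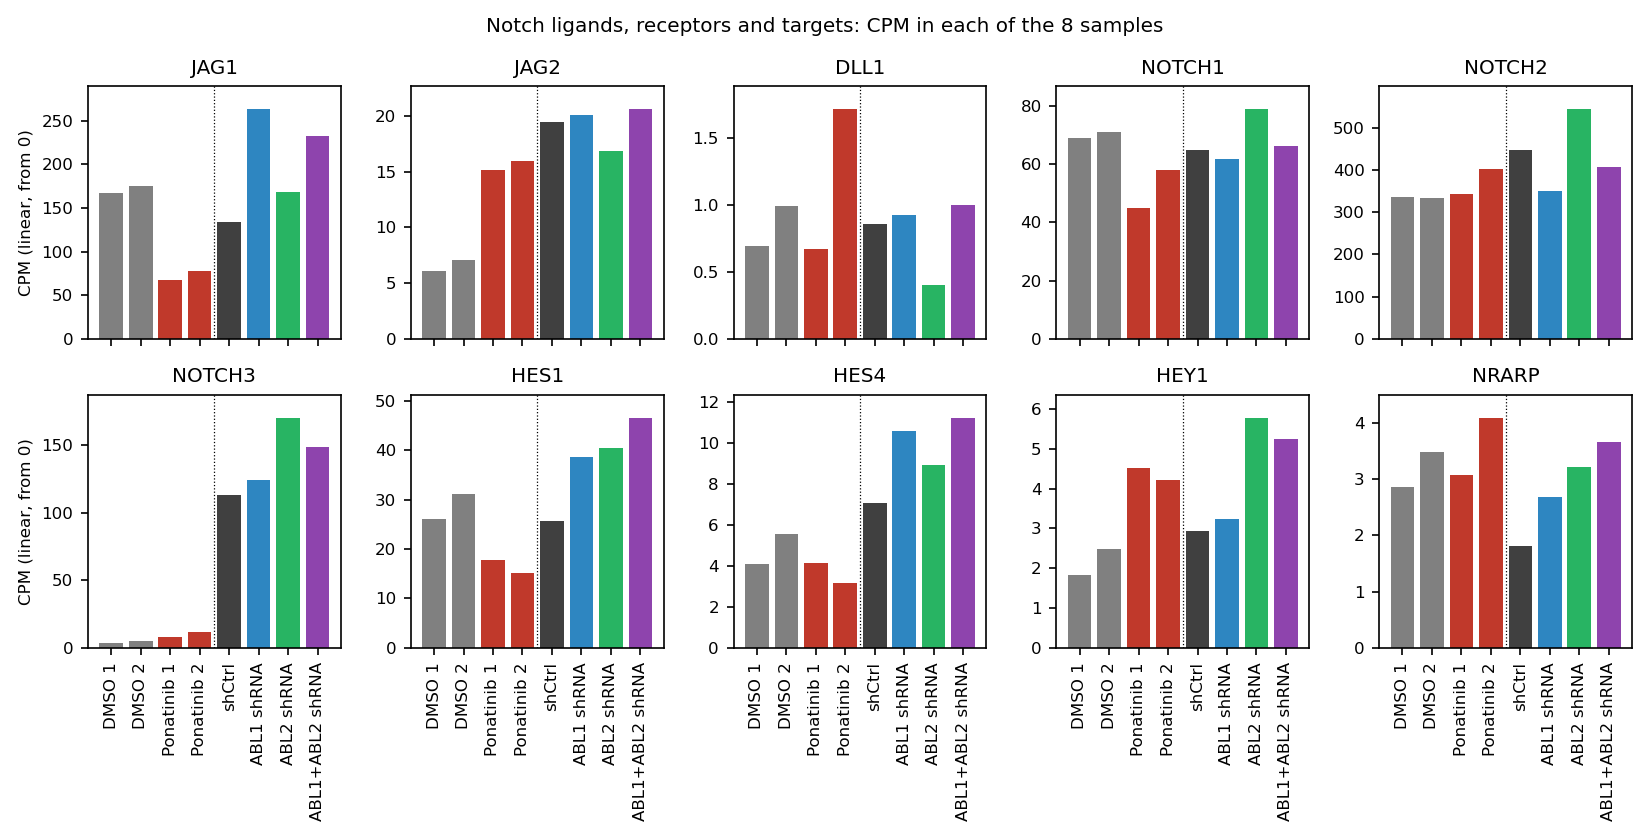
CPM of each gene in each of the 8 samples, with a linear axis from 0 in every panel and a dotted line between the 2 experiments; each bar is 1 sample. JAG1 and HES1 are lower in both Ponatinib samples than in both DMSO samples and higher in the 3 knockdown samples than in shCtrl.

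Among the ligands, JAG1 and JAG2 went opposite ways. JAG1 encodes Jagged1, a membrane-bound ligand, and lies on chromosome 20 of GRCh38 from 10637684 to 10673999. It was at 167 and 175 CPM in the DMSO samples and at 67.1 and 77.4 CPM in the Ponatinib samples. The groups did not overlap, as was so for 64.8% of all genes tested. JAG1 was 2.46-fold lower with Ponatinib, at -1.30 on the log2 scale with a standard error of 0.075 (edgeR adjusted p = 6.3e-09). In RNA from a whole culture, a lower level in every cell and fewer cells with the transcript cannot be told apart. JAG2, the second Jagged ligand (chromosome 14, 105140982 to 105168824), was at 6.08 and 7.06 CPM with DMSO and at 15.2 and 16.0 CPM with Ponatinib. It was 2.30-fold higher (log2 fold change 1.20, standard error 0.15, edgeR adjusted p = 3.2e-05), and even so JAG1 remained the more abundant, at 7.21 and 8.33 CPM per kb against 2.37 and 2.50 for JAG2. DLL1, a Delta-like ligand (chromosome 6, 170282206 to 170306565), was at 0.695 and 0.995 CPM with DMSO and at 0.673 and 1.72 CPM with Ponatinib. Its groups overlapped, and with 7 to 13 counts a sample the 95% interval of its log2 fold change ran from -0.70 to 1.44, which holds both 0 and a 2-fold rise. JAG2 shares exon sequence with an unnamed gene on its own strand, and JAG1, DLL1 and NRARP with genes on the opposite strand. The strand setting of the counting is not given in the sources used here, so it is not known how reads shared by such pairs were counted.

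The receptors differed in the same manner. NOTCH1 (chromosome 9, 136494433 to 136546048) was at 68.9 and 70.8 CPM with DMSO and at 44.8 and 58.0 CPM with Ponatinib. Both treated samples were below both controls, at a log2 fold change of -0.50 with a standard error of 0.098 (edgeR adjusted p = 0.0011). Without Ponatinib replicate 1 the log2 fold change was -0.30, and without replicate 2 it was -0.69. Such fits leave 1 sample in a group, so only sizes are given for them. NOTCH3 (chromosome 19, 15159038 to 15200995) was at 3.13 and 4.68 CPM with DMSO and at 7.59 and 11.6 CPM with Ponatinib. It was 2.35-fold higher (log2 fold change 1.23, standard error 0.25, edgeR adjusted p = 0.0014) from a low level. The NOTCH3 log2 fold change was 0.96 without DMSO replicate 1 and 0.93 without Ponatinib replicate 2, both short of 2-fold. It was 1.54 without DMSO replicate 2 and 1.55 without Ponatinib replicate 1. NOTCH2, the most abundant receptor (chromosome 1, 119911553 to 120100779), was at 336 and 333 CPM with DMSO and at 342 and 401 CPM with Ponatinib. The groups did not overlap by a small margin, and its log2 fold change of 0.10 had a 95% interval of -0.048 to 0.26 (edgeR adjusted p = 0.30). The log2 fold change was 0.22 without Ponatinib replicate 1 and -0.014 without replicate 2. NOTCH2 has near-identical partial copies, the NOTCH2NL genes, between which reads can be split. NOTCH2NLA, the copy matched by symbol, had 6.34 to 22.8 CPM over the 8 samples, against 333 to 544 CPM for NOTCH2.

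Of the targets, HES1 and HES4 encode repressors of the basic helix-loop-helix class. The 250 bases before the start of HES1 and a stretch of 30 bases near the start of HES4 are shown because they hold the core of the RBPJ site. They are RefSeq sequences on GRCh38.p14, read 5′ to 3′ along the gene, and capitals mark TGGGAA. The HES1 window is chr3:194135898-194136147 on the plus strand and the HES4 stretch is chr1:1000158-1000187 on the minus strand.
HES1: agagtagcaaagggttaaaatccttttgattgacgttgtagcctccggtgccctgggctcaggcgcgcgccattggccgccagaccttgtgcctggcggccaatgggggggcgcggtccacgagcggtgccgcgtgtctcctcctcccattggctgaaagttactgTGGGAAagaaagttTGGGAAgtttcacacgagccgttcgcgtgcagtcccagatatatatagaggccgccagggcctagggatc
HES4: ggctggggcgagtgTGGGAAagaatgcgga

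HES1 holds the core at positions -84 and -70 and HES4 at -76, counted back from the RefSeq start and all on the strand of the gene. For HES4 the main GENCODE transcript (MANE Select) has the RefSeq start, base 1000097, while another GENCODE transcript starts 75 bases farther upstream at 1000172. The HES4 core therefore straddles the start of that transcript, and the RefSeq window is not wholly before the gene as GENCODE places it. For HES1 both annotations give the same start. On both strands TGGGAA was found in 20.8% of 35116 RefSeq promoter windows of the same length, and 2 or more copies in 2.9%. Of the 8 members with a window in the table, HES1 and HES4 held it, while JAG1, JAG2, NOTCH1, NOTCH2, NOTCH3 and NRARP did not. The 2 members not matched in that table were HEY1 and DLL1. The longest run that the HES1 and HES4 windows share is the 12 bases TGTGGGAAAGAA, which starts at -86 and -78 and was looked for after the sequences were seen. It stands in 6 of the 35116 windows (0.0171%), those of HES1 and HES4 included. The N box CACNAG, to which HES proteins are known to bind, was found 3 times in HES1 and once in NOTCH3, against 32.0% of all windows with at least 1. The E box CACGTG (6.34% of windows) and the AP-1 motif TGANTCA (6.57%) were in none of the 8. These matches are descriptions of the letters in the windows, and binding was not measured.

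HES1 (chromosome 3, 194136148 to 194138732) was at 26.2 and 31.1 CPM with DMSO and at 17.7 and 15.1 CPM with Ponatinib. Both treated samples were lower, at a log2 fold change of -0.83 with a standard error of 0.13 (edgeR adjusted p = 0.00015). HES4 (chromosome 1, 998962 to 1000172), which shares the run, was at 4.08 and 5.57 CPM with DMSO and at 4.13 and 3.17 CPM with Ponatinib. These overlapped, and its log2 fold change of -0.41 had a 95% interval of -0.94 to 0.12 (edgeR adjusted p = 0.24). With 1 sample left out it ran from -0.63 without DMSO replicate 1 to -0.18 without DMSO replicate 2. HEY1, a related repressor (chromosome 8, 79762371 to 79767857), was at 1.82 and 2.49 CPM with DMSO and at 4.52 and 4.23 CPM with Ponatinib. It was 1.99-fold higher (log2 fold change 0.99, standard error 0.26, edgeR adjusted p = 0.010) on 21 to 47 counts a sample. The rise of HEY1 did not pass DESeq2's Wald test (log2 fold change 0.98, DESeq2 adjusted p = 0.18). Without DMSO replicate 1 its log2 fold change was 0.77, and without DMSO replicate 2 it was 1.22. NRARP, which encodes a feedback inhibitor of Notch (chromosome 9, 137299631 to 137302271), was at 2.87 and 3.48 CPM with DMSO and at 3.08 and 4.10 CPM with Ponatinib. Its interval ran from -0.45 to 0.67 (edgeR adjusted p = 0.79). Of the 4 targets, 1 fell and 2 did not pass. The 1 that rose did so by a call that depends on the tool, and its size moved with the DMSO sample left out.

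**Figure D3:**
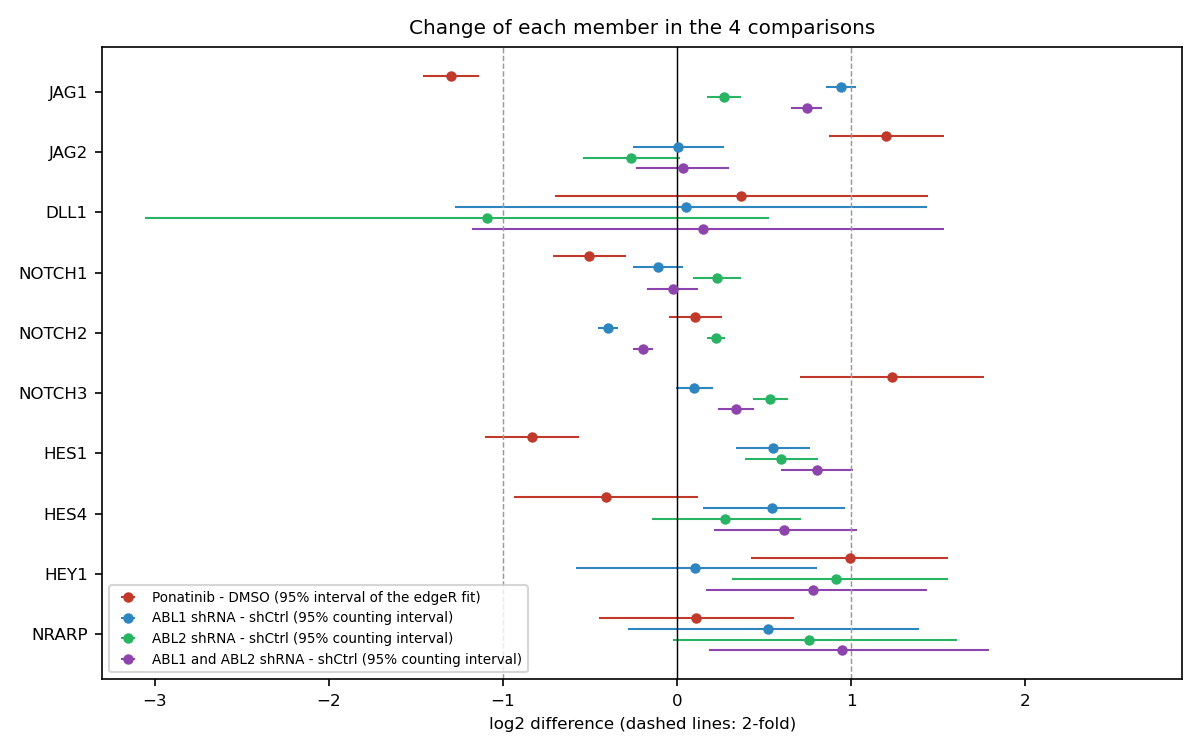
log2 difference of each gene in the 4 comparisons; bars are the 95% interval of the edgeR fit for Ponatinib and 95% exact counting intervals for the knockdowns, and dashed lines mark 2-fold. JAG1 at -1.30, HES1 at -0.83 and NOTCH1 at -0.50 lie left of 0 for Ponatinib, and the JAG1 and HES1 values of the 3 knockdowns lie right of it.

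In the ABL knockdowns the same genes were compared with shCtrl, with 1 sample each, so that no spread could be had from these samples. Values are log2 ratios with 95% exact binomial intervals of the 2 counts, which cover counting error only, and the 3 knockdowns share the 1 control sample. Past 2-fold there were 0 of 10 members with ABL1 shRNA, 1 with ABL2 shRNA (DLL1, lower, on 5 against 10 counts) and 0 with both. Of 16172 genes, 4.43% were past 2-fold upward and 4.19% downward with ABL1 shRNA (8.62% in all), 4.40% and 3.25% with ABL2 shRNA (7.66%), and 4.31% and 3.38% with both (7.69%). Changes of 1.5-fold or more were seen upward for JAG1 with ABL1 shRNA, for HES1, HEY1 and NRARP with ABL2 shRNA, and for JAG1, HES1, HES4, HEY1 and NRARP with both. Of all genes, 12.0%, 11.1% and 11.7% were that much higher in the same order of samples, and 11.7%, 8.66% and 9.79% that much lower. An edgeR fit of all 8 samples takes the spread from the DMSO and Ponatinib pairs and assumes that each lone shRNA sample varies like them. In that fit JAG1, HES1 and, lower, NOTCH2 passed with ABL1 shRNA, HES1 and NOTCH3 with ABL2 shRNA, and JAG1, HES1 and NOTCH3 with both. These are 3, 2 and 3 of 10 members, against 22.0%, 15.6% and 17.8% of 18275 genes. The members' median log2 ratio was 0.10, 0.27 and 0.48 in that order of samples, and that of all genes between -0.018 and -0.0058.

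JAG1 was at 134 CPM in shCtrl, 264 CPM with ABL1 shRNA, 168 CPM with ABL2 shRNA and 233 CPM with both. Its log2 ratios were 0.94 (0.85 to 1.03), 0.27 (0.17 to 0.37) and 0.74 (0.65 to 0.84), so the sample with both shRNAs lay between the single ones. HES1 was at 25.8 CPM in shCtrl and at 38.7, 40.5 and 46.6 CPM in the same order. The HES1 log2 ratios of 0.55 (0.34 to 0.76), 0.60 (0.39 to 0.81) and 0.80 (0.60 to 1.01) overlapped each other. Both genes were thus below their control with Ponatinib and above theirs in all 3 knockdowns, and the difference between the experiments was not tested.

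The other targets were above shCtrl as well. HES4 was at 7.06 CPM in shCtrl and at 10.6, 8.91 and 11.2 CPM with ABL1 shRNA, ABL2 shRNA and both. HEY1 was at 2.93 CPM in shCtrl and at 3.23, 5.78 and 5.24 CPM. For NRARP the values were 1.81 CPM in shCtrl and 2.69, 3.21 and 3.66 CPM. With both shRNAs the log2 ratios were 0.61 (0.21 to 1.03) for HES4, 0.78 (0.16 to 1.43) for HEY1 and 0.95 (0.18 to 1.79) for NRARP, all above 0 by counting error. With a single shRNA the interval held 0 for HES4 with ABL2 shRNA, for HEY1 with ABL1 shRNA and for NRARP with either one.

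The receptors had log2 ratios between -0.39 and 0.53. NOTCH1 was at 64.9 CPM in shCtrl and at 61.6, 78.9 and 66.1 CPM in the 3 knockdowns. NOTCH2 was at 448 CPM in shCtrl, 349 CPM with ABL1 shRNA, 544 CPM with ABL2 shRNA and 406 CPM with both. It was the member for which the 2 single shRNAs lay on either side of shCtrl with neither interval reaching 0, at -0.39 (-0.45 to -0.34) and 0.23 (0.17 to 0.28). NOTCH1 had an interval past 0 with ABL2 shRNA only. NOTCH3 was at 113 CPM in shCtrl and at 124, 170 and 148 CPM, with log2 ratios of 0.10 (-0.0056 to 0.21), 0.53 (0.43 to 0.64) and 0.34 (0.24 to 0.44). JAG2, at 19.5 CPM in shCtrl and 20.1, 16.9 and 20.6 CPM, had intervals that held 0 in all 3, as did DLL1, at 0.861 CPM and 0.922, 0.401 and 0.999 CPM. In all, shCtrl was the lowest of the 4 shRNA samples for 6 of 10 members (JAG1, NOTCH3, HES1, HES4, HEY1 and NRARP) and the highest for 0, against 28.7% and 30.7% of 16172 genes. These ranks and ratios rest on 1 control sample, and a difference of that sample cannot be told apart from an effect of the knockdowns.

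Levels also differed between the 2 experiments, among the members most for NOTCH3. Its 4 shRNA samples ranged from 113 to 170 CPM and the DMSO and Ponatinib samples from 3.13 to 11.6 CPM, so that shCtrl was 29.0 times the mean of the DMSO samples. For the other members that ratio ran from 0.570 (NRARP) to 2.96 (JAG2). The shRNA lines and the drug-treated cells were separate sets of samples with their own controls, so the levels are descriptions only. Of 12121 genes with a mean of at least 50 counts, the lowest shRNA sample was over 10 times the highest other sample for 11, and the reverse was so for 341. By that measure NOTCH3 stood at 9.72 times and was not among the 11. PECAM1, an endothelial gene, was also higher in the shRNA samples (20.1 to 40.1 CPM against 2.38 to 4.04), while CDH5, another, was at or below 0.25 CPM in all 8. Its part in the level of NOTCH3 was not tested.

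A list of 66 Notch pathway genes, the 10 members included, gave the wider view of Ponatinib treatment. Of 54 that passed the filter, 14 rose and 8 fell, and their median log2 fold change was 0.06. Of all genes, 15.0% rose and 15.7% fell. With DESeq2, 9 of the list rose and 6 fell, while the calls over all genes went from 4917 to 2586. The ligand and receptor genes not yet named (DLL3, DLL4 and NOTCH4) had too few counts to be tested. Outside the members, 11 of 44 rose and 5 fell. LFNG and NEURL1B were the genes of these with a fold change over 2.

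LFNG encodes Lunatic fringe, which adds sugars to Notch receptors and changes which ligands they answer to. It was at 5.39 and 5.87 CPM with DMSO and at 13.6 and 13.9 CPM with Ponatinib, 2.36-fold higher (log2 fold change 1.24, standard error 0.16, edgeR adjusted p = 3.3e-05). NEURL1B encodes a ubiquitin ligase of the Neuralized family, which acts on Notch ligands. It was at 24.2 and 22.7 CPM with DMSO and at 50.6 and 55.4 CPM with Ponatinib, 2.18-fold higher (log2 fold change 1.12, standard error 0.093, edgeR adjusted p = 3.4e-07). Neither gene overlapped between the groups. In the knockdowns LFNG had log2 ratios of 0.08, -0.36 and 0.14 with ABL1 shRNA, ABL2 shRNA and both, and NEURL1B of 0.38, 0.43 and 0.77.

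By role, the nuclear complex around RBPJ had 1 gene up and 0 down of 9 tested, and RBPJ itself was not past the threshold (log2 fold change -0.093, edgeR adjusted p = 0.33). The proteases that cut the receptor had 3 up and 1 down of 9. The corepressors that sit on RBPJ without Notch had 4 up and 3 down of 9, with log2 fold changes from -0.42 to 0.60. Genes that restrain or turn over Notch had 1 up and 0 down of 8. Among all genes tested 30.7% were called, and no role was tested as a group. In the knockdowns, 5, 4 and 4 genes of the 60 that passed the filter were past 2-fold with ABL1 shRNA, ABL2 shRNA and both, close to the shares of all genes given above. The 1 pathway gene past 2-fold in the same direction in all 3 was DLL4, an endothelial-type Delta-like ligand, which had 3 counts in shCtrl and 15, 8 and 11 counts in the knockdowns. Its counting interval ran from 0.30 to 4.55 for the ABL1 sample. The intervals of -0.80 to 3.81 for the ABL2 sample and -0.15 to 4.25 for the double knockdown both held 0.

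**Figure D4:**
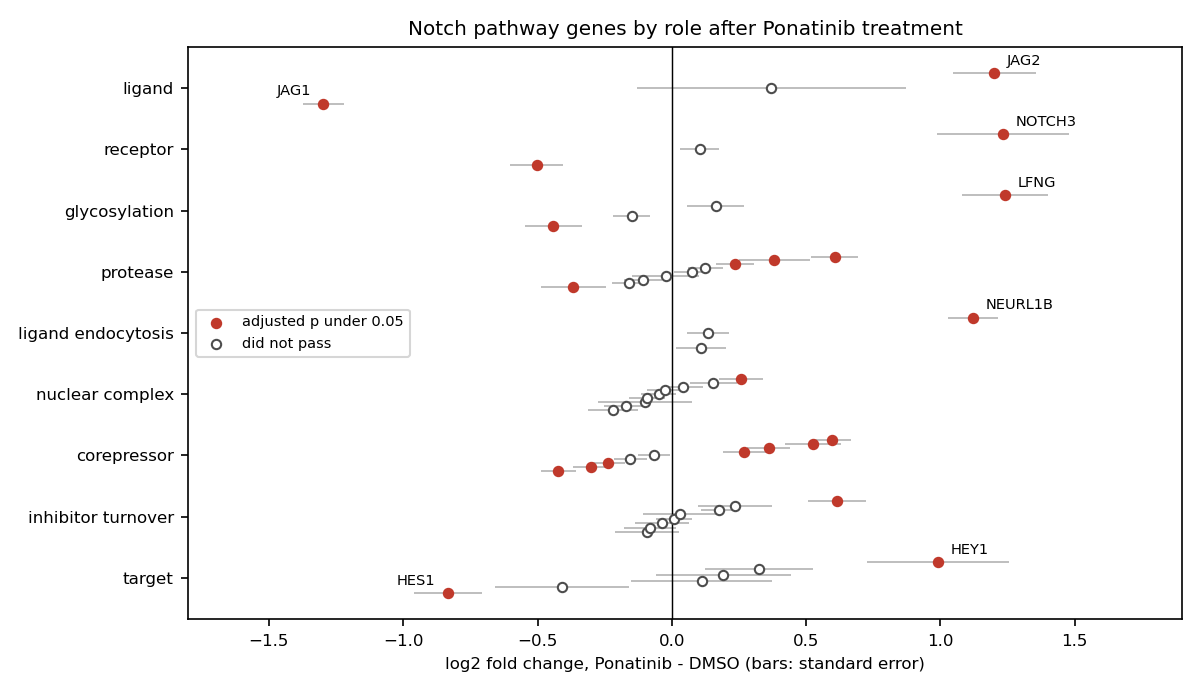
log2 fold change of each tested pathway gene after Ponatinib treatment, grouped by role; bars are standard errors, filled points have an edgeR adjusted p under 0.05, and genes beyond 0.75 in either direction are named. The named genes are ligands, a receptor, targets, LFNG and NEURL1B, whereas the genes of the nuclear complex lie between -0.22 and 0.26.

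The genes whose levels ran most like those of JAG1 and HES1 were sought over the 8 samples, with each gene centred within each experiment, among 12121 genes. For JAG1 they were TIMM23, LARP4, ISG20L2, EFHD2 and KCTD5, with Pearson's r from 0.997 to 0.992. For HES1 they were RNF166, SHB, MOB3A, PHLDA2 and PHETA1, with r from 0.983 to 0.979. HES1 was not among the first 5 of JAG1, and the r between these 2 genes was 0.871. The points share libraries and their depth, and 8 points leave many genes with a high r.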

How the data were processed

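RNA-seq of LM2 cells was analysed from 8 samples. The authors mapped the reads to hg38 with Bowtie/TopHat, and the submitters' processing notes name HTSeq 0.6.0. The deposited values are raw read counts per Ensembl gene, without normalization. The annotation release and the counting settings are not given in the sources used here. In the shRNA files, 15.7% to 16.0% of counted reads stood in rows that name no gene and were left out. Symbols were matched for 54836 of 58688 identifiers, and positions and exon lengths are from GENCODE on GRCh38.

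Ponatinib was tested against DMSO in those 4 samples with edgeR 4.0.16 in R 4.3.3 (filterByExpr, TMM, quasi-likelihood test, two-sided, Benjamini-Hochberg over all genes). Standard errors are the log2 fold change over the root of F. Levels are plain CPM. The repeats of DMSO and of Ponatinib differed by more than counting noise (chi-square per degree of freedom 1.44 and 3.12), so each was counted as a sample. Each knockdown was set against shCtrl by TMM-scaled log2 ratios with a pseudocount of 0.5 counts. Intervals and floors cover counting error only.

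The members and lists were chosen with earlier results of these data known. Genes named outside the members are pathway genes that passed with a fold change over 2, or were past 2-fold alike in all 3 knockdowns, plus the NOTCH2 copy, the shRNA targets, marker genes, RBPJ and the 5 genes most like JAG1 and HES1. RBPJ was added after its values were seen. On simulated counts for 15791 genes, 100 of 100 genes changed 2-fold were recovered, and 13 unchanged genes were called. The simulated spread followed the fitted trend, so recovery of genes that vary more than the trend was not tested. The changed genes were drawn from those with a mean above 5 CPM. Recovery at the lower levels of DLL1, HES4, HEY1 and NRARP was not tested. Alternatives included DESeq2 1.42.0, other filters and scalings, the replicate block and leaving out each sample.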

Additional observations from a re-analysis of the deposited data

How the results depend on the processing

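With 2 samples a group at most and 1 for each shRNA line, differences that are small against the spread, and those of DLL1, HEY1 and NRARP on few counts, are poorly resolved. The number of members that passed after Ponatinib treatment was 6, and it was 5 with DESeq2. It stayed at 6 under another scaling, other filters and a fit of all 8 samples. It did not stay at 6 in every fit with a sample left out. The labels used here do not say that same-numbered repeats are pairs. Same-numbered deviations had r = 0.018 across 10319 genes, a single correlation that cannot settle whether they are. With the replicate block 6 members, 22 pathway genes and 4984 genes passed, against 6, 22 and 4917 without it. By the study's rule of fold change over 2 and unadjusted P under 0.05 there were 3 members, 5 pathway genes and 878 genes. The study, which also used edgeR, reported fewer genes by that rule, and the reason was not tested. DESeq2 called 2586 genes. With each sample left out in turn, the pathway count ran from 13 to 30 and that of all genes from 2800 to 5744, the lowest of both without DMSO replicate 1. Without DMSO replicate 2 it was 3230 genes. Values that changed sign were those of DLL1 (-0.35 to 0.99, below 0 without Ponatinib replicate 2), NOTCH2 (-0.014 to 0.22, below 0 without Ponatinib replicate 2) and NRARP (-0.082 to 0.34, below 0 without Ponatinib replicate 2 and, at -0.028, without DMSO replicate 1).

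For the knockdowns, in the order ABL1 shRNA, ABL2 shRNA and both, a threshold of 1.5-fold gave 1, 4 and 5 members, 11, 16 and 15 pathway genes and 3845, 3194 and 3470 genes. Requiring 10 counts in every shRNA sample gave 0 members in each, 2, 0 and 1 pathway genes and 713, 596 and 555 genes, since low genes were removed. A pseudocount of 2 counts gave 0 members and 2 pathway genes with ABL2 shRNA. Plain CPM put 1 member (NRARP) past 2-fold with both shRNAs. An edgeR fit of all 8 samples, in which each lone sample is assumed to vary like the DMSO and Ponatinib pairs, passed 3, 2 and 3 members and 4015, 2845 and 3258 genes. The cause of these other differences was not tested.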
